A study of Homo sapiens with 18 samples.

Results

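The genes described here are 10 genes of YAP/TAZ and TEAD signalling in 2 human melanoma cell lines. They include the co-activators YAP1 and WWTR1 (the gene of TAZ) and the DNA-binding partners TEAD1 and TEAD4. The others are the target genes CTGF, CYR61, ANKRD1, AMOTL2 and LATS2, the last of which encodes a kinase, and the adaptor AJUBA. All 10 were chosen by name, with earlier results of these data known, and all have a row among the 20705 genes of the count table. Poly-A RNA was sequenced from 18 libraries in 9 groups of 2. CHL1 cells, grown in DMEM, were a control given the vehicle DMSO alone for 72 h, 1 µM palbociclib (a CDK4/6 inhibitor, CDK4/6i) for 72 h, the same dose for 6 d, and 500 nM GSK3326595 (a PRMT5 inhibitor, PRMT5i) for 72 h. A375 cells, grown in RPMI, had the same 4 groups and a DMSO control of 6 d as well, so the CHL1 libraries of 6 d were compared with a control of 72 h. The labels give a WT genotype for every sample. The study's methods describe CHL1 as wild type for BRAF and NRAS with mutant p53, and A375 as BRAF-mutant with wild-type p53. Each is a single established line, so a difference between the lines is a difference between these 2 lines only. The methods say that 2 replicates of each condition were grown but not how far they were independent, and the p-values measure only the spread between these libraries, which may be technical.

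YAP and TAZ carry no DNA-binding domain of their own and act on genes through the TEAD proteins, which recognise a short motif in promoters and enhancers. The Hippo kinases restrain them: MST1 and MST2 (genes STK4 and STK3), with the scaffold SAV1, act on LATS1 and LATS2 and their MOB1 partners, and LATS kinases phosphorylate YAP and TAZ so that they leave the nucleus or are degraded. CTGF and CYR61 are secreted matrix proteins and ANKRD1 is a nuclear ankyrin-repeat protein, and the 3 are commonly read as a measure of YAP/TAZ activity. AMOTL2 and LATS2 are targets that also hold YAP and TAZ back, and AJUBA is a LIM protein that binds LATS kinases. In melanoma, high YAP/TAZ activity is associated with invasive cells. RNA levels do not show the phosphorylation or the location of YAP and TAZ.

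The core of the TEAD motif, GGAATG, was searched on both strands from 250 bases before to 50 bases after 1 RefSeq start site (build GRCh38.p14) of each of the 7 members that have an entry. It was found in 4 of the 7, whereas 14.0% of 35116 promoters of the same length hold it. CTGF had 3 copies and ANKRD1 had 2, and 0.128% and 1.37% of all promoters hold at least 3 and at least 2. These are the 250 bases before the start site of CTGF (chr6:131951373-131951622, minus strand) and ANKRD1 (chr10:90921088-90921337, minus strand), the members with more than 1 copy, printed 5′ to 3′ with the motif in capitals.
CTGF: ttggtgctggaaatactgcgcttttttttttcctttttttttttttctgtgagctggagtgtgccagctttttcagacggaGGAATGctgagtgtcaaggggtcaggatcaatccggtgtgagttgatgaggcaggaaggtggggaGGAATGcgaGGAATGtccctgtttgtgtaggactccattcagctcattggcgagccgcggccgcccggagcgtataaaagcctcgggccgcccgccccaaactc
ANKRD1: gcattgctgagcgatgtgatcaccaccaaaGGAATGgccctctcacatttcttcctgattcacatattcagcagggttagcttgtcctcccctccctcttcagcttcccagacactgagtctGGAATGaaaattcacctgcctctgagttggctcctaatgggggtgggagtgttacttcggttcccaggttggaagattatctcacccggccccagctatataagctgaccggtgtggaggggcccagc
In CTGF the motifs begin at -169, -104 and -95 and in ANKRD1 at -220 and -128, counted from the start site, all on the coding strand. YAP1 had 1 copy at -162 and LATS2 had 1 that begins at base 10 of the transcript, and WWTR1, AMOTL2 and AJUBA had 0. As only 1 start site per gene was searched, copies near any other start site would be missed. The members without an entry were TEAD1, TEAD4 and CYR61. A match of these letters is not evidence of binding.

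Total counts were 16213475 to 37424081 per library. The 2 CHL1 PRMT5i libraries and the 2 A375 control libraries of 6 d stood apart: their log2 level of GC-rich genes, relative to GC-poor genes and to the median library of the line, was -2.32 and -1.88 and -2.18 and -1.09, against -0.33 to 0.56 in the other 14. Members' results that rest on them are given with and without a GC correction. By their library names, all CHL1 libraries and the A375 libraries of 6 d belong to one set and the A375 libraries of 72 h to another. Levels are given as CPM, the reads of a gene scaled to a common library size. A list of melanocyte markers (MITF, PMEL, TYR, DCT and S100B) summed to 151 to 281 CPM in CHL1 and 113 to 263 CPM in A375. SOX10 and MLANA, also on that list, have no row in the count table. TYR was at 3 reads or fewer in every CHL1 library, and DCT had 0 reads in the A375 controls of 72 h. Markers of epithelial, blood and liver cells (KRT5, KRT14, EPCAM, PTPRC and ALB) summed to 8.51 to 18.7 CPM in CHL1 and 3.03 to 12.7 CPM in A375, KRT5 having 0 reads in every CHL1 library. The T cell marker CD3E and the endothelial marker PECAM1, listed with them, have no row either.

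Control A375 cells carried more RNA of 8 of the 10 members than control CHL1 cells, and the gap was widest for the target genes CTGF and ANKRD1. WWTR1 (chromosome 3:149235022-149454501, minus strand, GRCh37) was at 61.9 and 70.8 CPM in the CHL1 controls and at 971 and 855 CPM in the A375 controls of 72 h. YAP1 (11:101981178-102104155, plus strand) was at 92.7 and 87.5 CPM in CHL1 and 227 and 238 CPM in A375. Both co-activators were higher in both A375 controls than in either CHL1 control, WWTR1 by 13.8-fold (log2 3.78, adjusted p = 5.75e-10, edgeR's quasi-likelihood test with Benjamini-Hochberg adjustment over all genes, as throughout) and YAP1 by 2.58-fold (log2 1.37, adjusted p = 8.23e-06). TEAD4 (12:3068496-3149842, plus strand) was at 25.1 and 24.7 CPM against 80.9 and 89.3 CPM, 3.42-fold higher in A375 (adjusted p = 1.52e-06). TEAD1 (11:12695968-12966284, plus strand) was at 253 and 279 CPM in CHL1 and 344 and 330 CPM in A375, and the difference of 0.34 (log2) did not pass the threshold (adjusted p = 0.0913). In RNA of a whole culture, fewer cells that express a gene and less RNA per cell cannot be told apart.

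CTGF (6:132269316-132272512, minus strand) had 8 and 5 reads in the CHL1 controls, or 0.276 and 0.177 CPM, and was at 45.9 and 41.1 CPM in the A375 controls. ANKRD1 (10:92671853-92680844, minus strand) had 2 and 6 reads in the CHL1 controls and was at 26.0 and 23.8 CPM in A375. The fitted differences were 187-fold for CTGF (log2 7.55, SE 0.50) and 172-fold for ANKRD1 (log2 7.42, SE 0.42), both resting on these few CHL1 reads. Without the first or the second CHL1 control the value of ANKRD1 was 6.81 or 8.37 (log2). CYR61 (1:86046444-86050272, plus strand), the other secreted target, was readily measured in CHL1, at 13.1 and 12.2 CPM, and was 7.14-fold higher in A375, at 97.0 and 83.3 CPM (adjusted p = 4.31e-09). AMOTL2 (3:134074189-134094321, minus strand) was 3.5-fold higher, at 205 and 172 CPM against 60.0 and 47.9 CPM (adjusted p = 3.65e-05). AJUBA (14:23440386-23451760, minus strand) was scarce in both lines, with 3 to 36 reads in the A375 libraries and 0 to 6 reads in CHL1, and was also called higher in A375 (log2 3.36, SE 0.60, adjusted p = 0.000107), at 2.75 or 4.31 without the first or the second CHL1 control. LATS2 (13:21547175-21635725, minus strand) was at 52.6 and 51.9 CPM in CHL1 and 55.0 and 53.3 CPM in A375, and its difference of 0.05 (log2) did not pass (adjusted p = 0.808).

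Among all genes, 58.9% were called between the controls, 29.6% higher and 29.3% lower in A375, so a call by itself is common here. The median difference was 2.32 (log2) over the 10 members and 0.02 over all genes. Of 17 other target genes of YAP/TAZ, 12 were higher and 2 were lower in A375, with a median of 1.48, while of 23 other genes of the Hippo pathway 6 were higher and 12 lower, with a median of -0.46. Line, medium and library set differ together in this comparison and cannot be told apart. The CDK4/6i libraries of 6 d, which share 1 library set but not the medium, were therefore compared as well, a comparison added after the values were seen, in which 61.1% of genes were called. There WWTR1 (log2 3.82), YAP1 (1.38), TEAD4 (1.94), TEAD1 (1.16), CTGF (5.98), ANKRD1 (5.82) and CYR61 (0.67) were higher in A375. LATS2 was lower by that comparison (log2 -0.88, adjusted p = 0.000155), and AMOTL2 (-0.12) and AJUBA (1.68) did not pass. The value of CTGF ran from 5.14 to 7.20 with single libraries left out, and CYR61 was the call that depended on them: it was 0.62 (adjusted p = 0.0719) without the first CHL1 library of 6 d and 0.35 (adjusted p = 0.256) without the second A375 CDK4/6i library of 6 d.

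**Figure D1:**
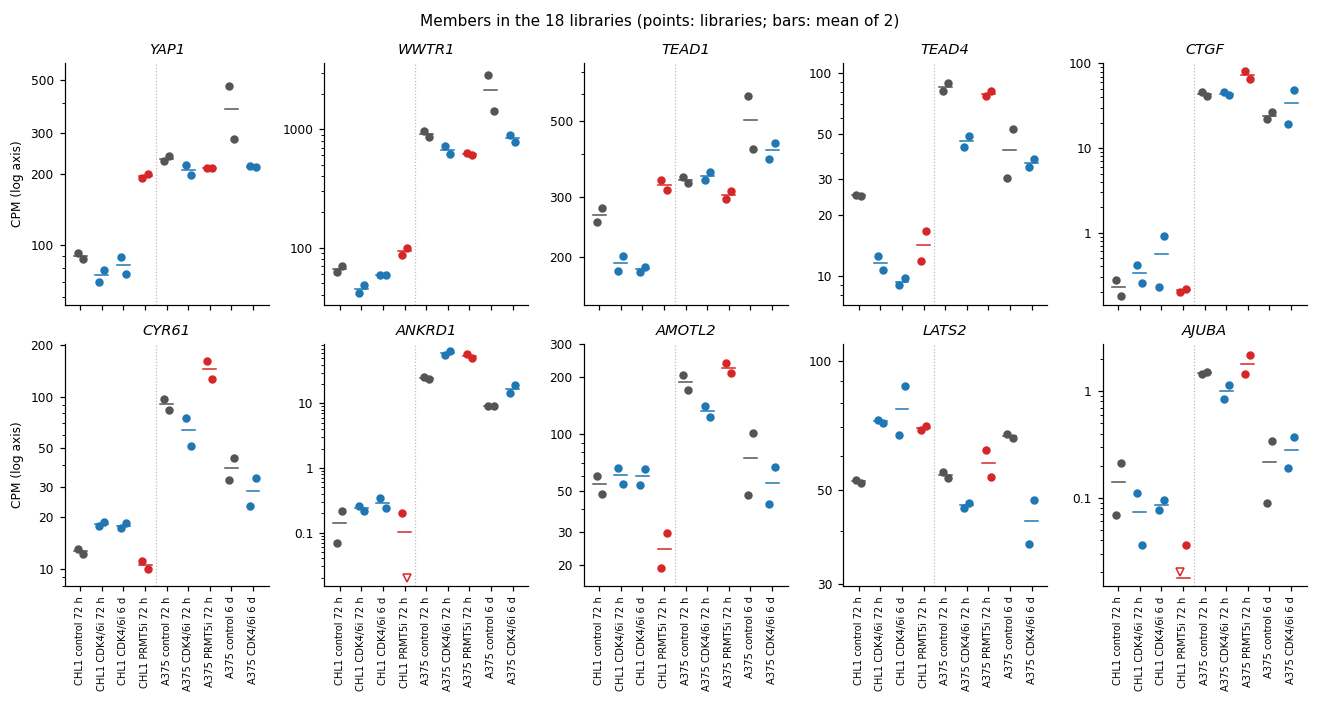
Level of each of the 10 genes in CPM (log axis) by group, with points for the 18 libraries, bars for the mean of the 2 libraries of a group and open triangles at the bottom for libraries with 0 reads. Controls are grey, CDK4/6i blue and PRMT5i red, and every A375 library lies above every CHL1 library for WWTR1, TEAD4, CTGF, CYR61 and ANKRD1.

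Read per kilobase of the longest transcript, which allows levels of different genes to be set side by side, the balance of the 2 co-activators was opposite in the 2 lines. The level of WWTR1 relative to YAP1 was 0.716 and 0.867 in the CHL1 controls and 4.59 and 3.85 in the A375 controls of 72 h. Over all libraries this ratio ran from 0.479 to 0.867 in CHL1 and from 3.04 to 6.54 in A375, so YAP1 was the more abundant of the pair in every CHL1 library and WWTR1 in every A375 library. In CHL1 the lowest ratios, 0.479 and 0.536, were those of the PRMT5i libraries. Of the summed per-kilobase level of TEAD1 to TEAD4, TEAD4 made up 28.4% and 26.9% in the CHL1 controls and 51.5% and 54.6% in the A375 controls of 72 h. With CDK4/6i for 72 h the TEAD4 share was 19.3% and 17.1% in CHL1 and 36.6% and 38.4% in A375, below both controls in each line. These shares are descriptions and were not tested.

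**Figure D2:**
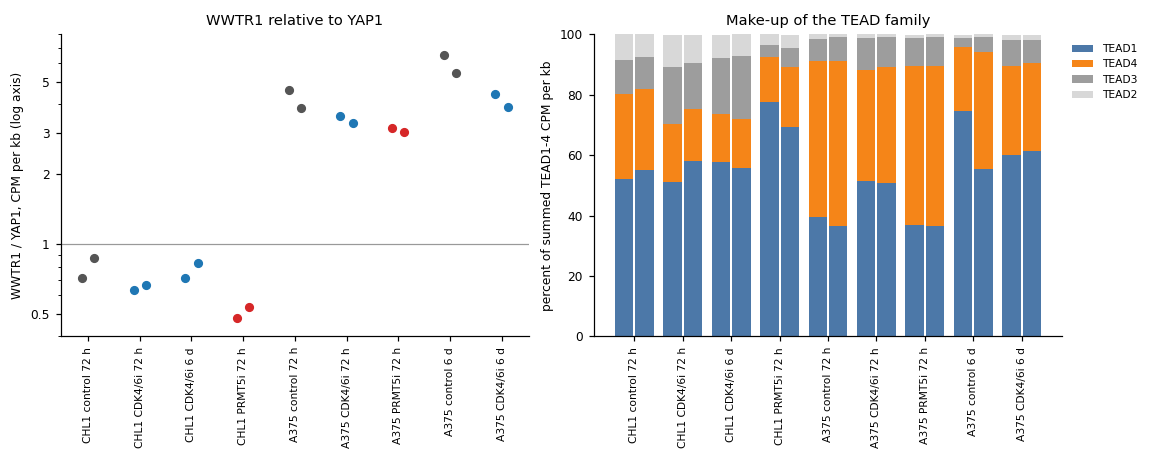
Left, the ratio of WWTR1 to YAP1 in CPM per kilobase (log axis), a point for each library. Right, the share in percent of TEAD1, TEAD2, TEAD3 and TEAD4 in their summed CPM per kilobase, a stacked bar for each library; the ratio stays below 1 in CHL1 (highest 0.867) and above 1 in A375 (lowest 3.04).

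In CHL1 cells, CDK4/6i for 72 h lowered TEAD4 and no other member passed the test. TEAD4 went from 25.1 and 24.7 CPM in the controls to 12.5 and 10.7 CPM, with no overlap between the groups (log2 -1.10, SE 0.20, adjusted p = 0.0126). That is 1 of 10 members, against 4.98% of all genes (2.27% higher and 2.72% lower). The co-activator WWTR1 was at 41.5 and 48.9 CPM against 61.9 and 70.8 CPM in the controls (log2 -0.56, adjusted p = 0.0738) and TEAD1 at 182 and 201 CPM against 253 and 279 CPM (log2 -0.48, adjusted p = 0.0866). In the other direction, CYR61 was at 17.7 and 18.7 CPM against 13.1 and 12.2 CPM (log2 0.52, adjusted p = 0.105) and LATS2 at 72.8 and 71.8 CPM against 52.6 and 51.9 CPM (log2 0.46, adjusted p = 0.122). For these 4 genes the libraries of the 2 groups did not overlap, but the differences did not pass. All 4 passed, as did TEAD4, with the GC correction, beside 15.9% of the 13655 genes it covers, and with only the 2 groups compared in the fit, beside 20.3% of all genes. In DESeq2, WWTR1 (adjusted p = 0.0346) and TEAD1 (adjusted p = 0.0403) passed as well as TEAD4. The fall of TEAD4 was lost when any of the 4 libraries compared was left out (adjusted p = 0.0823 to 0.145), each time with 1 library of a group assumed to vary like the others.

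After 6 d of CDK4/6i, TEAD4 was lower still in value, at 9.00 and 9.68 CPM (log2 -1.40, SE 0.20, adjusted p = 0.00146), which is 0.378 of the control level, and this call did not depend on any single library. TEAD1 fell to 181 and 186 CPM (log2 -0.52, SE 0.15, adjusted p = 0.0314), and LATS2 rose to 67.1 and 87.6 CPM (log2 0.58, SE 0.16, adjusted p = 0.0304). Thus 3 of 10 members were called, 1 higher and 2 lower, against 16.6% of all genes (8.83% higher and 7.80% lower). As CHL1 has no control of 6 d, treatment and time in culture cannot be told apart in any CHL1 change from the control at 6 d. The calls of TEAD1 and LATS2 were lost when single libraries were left out, among them either control and either CDK4/6i library of 72 h (adjusted p up to 0.249 for TEAD1 and 0.195 for LATS2). CYR61, at 17.2 and 18.5 CPM, again lay above both controls (log2 0.51, adjusted p = 0.0626). YAP1, at 89.3 and 75.8 CPM, and AMOTL2, at 53.6 and 65.4 CPM, overlapped the control values. CTGF had 6 and 19 reads and stayed too scarce to be followed, as did ANKRD1 and AJUBA. Between 72 h and 6 d of CDK4/6i in CHL1, 0 of 10 members passed in edgeR and 0 in DESeq2, beside 0.0145% of all genes in edgeR. At an unadjusted p under 0.05 there was 1 member (WWTR1), beside 7.89% of all genes.

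In A375 cells CDK4/6i for 72 h lowered TEAD4 and raised ANKRD1. TEAD4 went from 80.9 and 89.3 CPM to 43.2 and 48.6 CPM (log2 -0.95, SE 0.23, adjusted p = 0.0117). ANKRD1 went from 26.0 and 23.8 CPM to 55.5 and 66.0 CPM, a 2.34-fold rise (SE 0.20 on the log2 scale, adjusted p = 0.000731). Neither gene's groups overlapped, and these 2 of 10 members compare with 13.3% of all genes (6.22% higher and 7.11% lower). The other 2 commonly read targets did not share the direction of ANKRD1: CTGF, at 45.8 and 42.5 CPM, overlapped its controls, and CYR61 was at 75.6 and 52.0 CPM against 97.0 and 83.3 CPM (log2 -0.56, not called). WWTR1 was at 727 and 613 CPM against 971 and 855 CPM (log2 -0.51) and AMOTL2 at 141 and 123 CPM against 205 and 172 CPM (log2 -0.57), also not called. In a fit of the 72 h libraries alone, WWTR1, CYR61 and AMOTL2 were called lower too, making 5 members beside 31.0% of all genes. The fall of TEAD4 was lost without any of the 4 libraries compared (adjusted p = 0.0534 to 0.135), while the rise of ANKRD1 was called without each of them.

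The difference between the lines in their response to CDK4/6i for 72 h was called for 0 of 10 members in edgeR and for 1, CYR61, in DESeq2, beside 0.642% of all genes in edgeR. At an unadjusted p under 0.05 there were 3 members, TEAD1, CYR61 and LATS2, beside 10% of all genes. TEAD4 was called lower in each line by its own test, at -1.10 in CHL1 and -0.95 in A375. The test of the difference for TEAD4 gave 0.21 (log2, SE 0.31, adjusted p = 0.924). A p that misses the threshold does not show that the responses were alike.

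At 6 d the reading of A375 turns on which control is used. Against the 6 d control, CDK4/6i lowered WWTR1 (log2 -1.36, SE 0.26, adjusted p = 0.00075), YAP1 (log2 -0.81, SE 0.21, adjusted p = 0.00613) and LATS2 (log2 -0.67, SE 0.17, adjusted p = 0.0064), and raised ANKRD1 (log2 0.89, SE 0.20, adjusted p = 0.00246). These 4 of 10 members, 1 higher and 3 lower, stand beside 43.1% of all genes (21.8% higher and 21.3% lower), so the share is near the background. The 2 libraries of the 6 d control differed widely from each other: WWTR1 was at 2890 and 1430 CPM and YAP1 at 473 and 281 CPM. The CDK4/6i libraries of 6 d were at 895 and 777 CPM for WWTR1 and 216 and 214 CPM for YAP1, below both of these, and without the first 6 d control the changes were -0.80 for WWTR1 and -0.42 for YAP1, still called. ANKRD1 was at 14.4 and 19.4 CPM against 9.17 and 9.08 CPM, and LATS2 at 37.2 and 47.2 CPM against 67.6 and 66.1 CPM. LATS2 was not called without the first CDK4/6i library of 6 d (adjusted p = 0.0923).

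The 6 d control also differed from the 72 h control in 9 of the 10 members, 3 higher (YAP1, WWTR1 and TEAD1) and 6 lower (TEAD4, CTGF, CYR61, ANKRD1, AMOTL2 and AJUBA). This comparison was added after the values were seen, and 47.8% of all genes were called in it (24.0% higher and 23.8% lower). It sets libraries of different sets side by side, so time and library set cannot be told apart. WWTR1 was higher by 1.19 (log2, adjusted p = 0.00167), while ANKRD1 was at -1.49 (adjusted p = 5.68e-05), AMOTL2 at -1.38 (adjusted p = 0.00158) and CYR61 at -1.27 (adjusted p = 0.000655). The co-activators and these targets thus lay on opposite sides in the 2 control groups. With the GC correction YAP1 (0.44), WWTR1 (0.82), ANKRD1 (-1.83), CYR61 (-1.11) and AMOTL2 (-0.74) were called in the same directions. LATS2 (0.76) was called too, beside 40.1% of the genes covered. TEAD4 (-0.29, adjusted p = 0.063), TEAD1 (0.27, adjusted p = 0.0837) and CTGF (-0.43, adjusted p = 0.325) were then no longer called. Without the first 6 d control, YAP1 (log2 0.26), TEAD1 (0.28) and CTGF (-0.73) were not called, WWTR1 was at 0.63 and AMOTL2 at -0.91, and without the second AMOTL2 was at -2.07.

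When the CDK4/6i libraries of 6 d were set against the 72 h control of A375 in place of the 6 d control, 5 members were called and all 5 were lower: AMOTL2 (log2 -1.83), CYR61 (-1.71), TEAD4 (-1.29), AJUBA (-2.41) and ANKRD1 (-0.60, adjusted p = 0.0279). ANKRD1 thus changed direction with the control, and YAP1, WWTR1 and LATS2 were no longer called, beside 31.2% of all genes. Treatment, time and library set cannot be told apart in this comparison, nor wherever below the 72 h control replaces that of 6 d. With the 6 d control and the GC correction, 6 of the 9 members covered were called, beside 42.9% of the 13655 genes covered. WWTR1 (-0.98), YAP1 (-0.57), TEAD4 (-0.83), AMOTL2 (-0.97) and LATS2 (-1.12) were lower and ANKRD1 (1.23) was higher. TEAD4 itself was at 34.4 and 37.4 CPM after 6 d of CDK4/6i, within the spread of the 6 d controls (30.2 and 53.0 CPM) and below the 72 h controls (80.9 and 89.3 CPM). The A375 response at 6 d, taken against its own control, minus that at 72 h was called for 0 of 10 members in edgeR and in DESeq2, beside 1.08% of all genes in edgeR. With the GC correction it was called for 0 of the 9 members covered, beside 1.9% of the genes covered. At an unadjusted p under 0.05, without the correction, there were 2 members (WWTR1 and TEAD4), beside 19.9% of all genes.

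**Figure D3:**
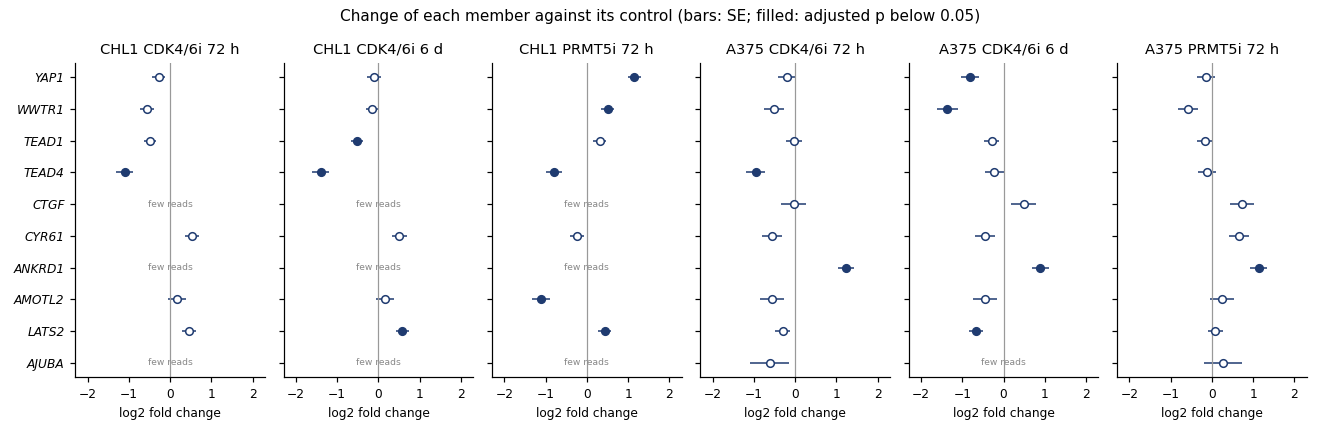
Log2 fold change of the 10 genes in the 6 comparisons of a treated group with its control; bars are 1 SE of the fit, filled points have an adjusted p below 0.05, and "few reads" marks genes with fewer than 10 reads in a library of both groups. TEAD4 is filled and negative in both CHL1 comparisons with CDK4/6i and in A375 at 72 h, and ANKRD1 is filled and positive in all 3 A375 comparisons.

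Without the GC correction, PRMT5i changed 5 of the 10 members in CHL1 cells, and YAP1 rose the most. YAP1 was at 193 and 201 CPM against 92.7 and 87.5 CPM in the controls, a 2.21-fold rise with wide separation of the groups (log2 1.15, SE 0.16, adjusted p = 0.000168). WWTR1 rose to 86.2 and 100 CPM (log2 0.51, SE 0.16, adjusted p = 0.0187). Both co-activators were thus higher, while AMOTL2, a target that holds them back, fell from 60.0 and 47.9 CPM to 19.5 and 29.6 CPM (log2 -1.11, SE 0.22, adjusted p = 0.0012). CYR61, at 11.1 and 9.97 CPM against 13.1 and 12.2 CPM, did not pass, and CTGF, ANKRD1 and AJUBA had too few reads. TEAD4 fell to 11.8 and 16.5 CPM (log2 -0.80, SE 0.20, adjusted p = 0.00484), whereas TEAD1 was at 337 and 314 CPM (log2 0.31, adjusted p = 0.0915). LATS2 rose to 69.0 and 70.5 CPM (log2 0.43, SE 0.16, adjusted p = 0.0371). As 54.0% of all genes were called in this comparison (26.4% higher and 27.6% lower), 3 members higher and 2 lower is near the background.

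These are the libraries in which GC-rich genes read low, and the members lie at both ends of that scale: the longest transcripts of YAP1 (43.5% GC), WWTR1 (42.2%) and TEAD1 (43.0%) are GC-poor, and those of TEAD4 (60.4%) and AMOTL2 (56.3%) are the richest of the 10. With the GC correction, 3 members were called and all 3 were higher. YAP1 still rose (log2 0.76, SE 0.11, adjusted p = 0.00128) and so did LATS2 (log2 0.95, SE 0.13, adjusted p = 0.000681). TEAD4 changed sign, from -0.80 to 0.42 (SE 0.13, adjusted p = 0.0317). WWTR1 (-0.03, adjusted p = 0.897) and AMOTL2 (-0.16, adjusted p = 0.416) were no longer called. Beside this, 34.5% of the 13655 genes covered were called. The rise of YAP1 is therefore the one change in this comparison that kept its call with the GC correction and without any single library. WWTR1 was lost without the first control (adjusted p = 0.161) or the second PRMT5i library (adjusted p = 0.0636), and LATS2, without the GC correction, was lost in 5 such fits (adjusted p = 0.0623 to 0.154).

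**Figure D4:**
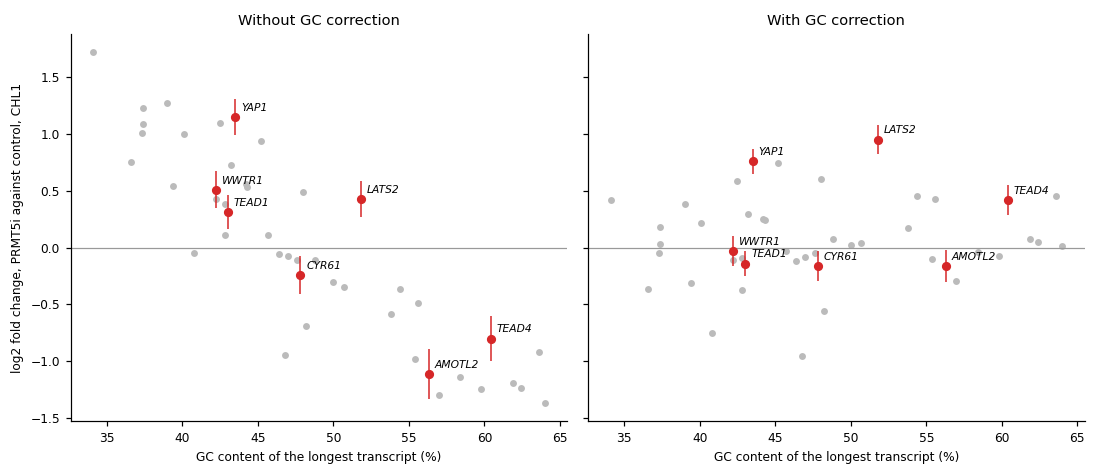
Log2 fold change under PRMT5i in CHL1 against the GC content (percent) of the longest transcript, without (left) and with (right) the GC correction; the 7 measurable genes of the 10 are red with 1 SE, and 38 other genes of the pathway and its targets are grey. Without the correction the values fall with GC content, TEAD4 lying at -0.80, and with it TEAD4 lies at 0.42 and YAP1 at 0.76.

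In A375 cells PRMT5i raised ANKRD1 and no other member passed. ANKRD1 went from 26.0 and 23.8 CPM to 59.1 and 50.9 CPM, a 2.19-fold rise (log2 1.13, SE 0.20, adjusted p = 0.00791), 1 of 10 members beside 2.61% of all genes (0.874% higher and 1.74% lower). The call was lost without any of the 4 libraries compared (adjusted p = 0.0973 to 0.12). CTGF was at 80.9 and 64.9 CPM against 45.9 and 41.1 CPM (log2 0.73, SE 0.30, adjusted p = 0.226) and CYR61 at 161 and 127 CPM against 97.0 and 83.3 CPM (log2 0.66, SE 0.24, adjusted p = 0.165). All 3 targets thus lay above both controls, though CTGF and CYR61 did not pass here. In a fit of the 72 h A375 libraries alone, which leaves out both 6 d groups, CTGF (adjusted p = 0.00195), CYR61 (adjusted p = 0.0169) and ANKRD1 (adjusted p = 0.00017) were called higher and WWTR1 lower (log2 -0.58, adjusted p = 0.0113), beside 15.8% of all genes. YAP1 was at 213 and 213 CPM, below both controls (227 and 238 CPM), and WWTR1 at 630 and 604 CPM against 971 and 855 CPM.

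The PRMT5i responses of the 2 lines differed for 4 of the 10 members by a test of the difference itself, in which 40.9% of all genes were called. The A375 response minus the CHL1 response was -1.25 for YAP1 (log2, SE 0.27, adjusted p = 0.00162) and -1.06 for WWTR1 (SE 0.34, adjusted p = 0.0174). It was 1.39 for AMOTL2 (SE 0.41, adjusted p = 0.011) and 0.94 for CYR61 (SE 0.31, adjusted p = 0.0202). Relative to CHL1, the co-activators responded downwards in A375 and these 2 targets upwards. With the GC correction the differences of YAP1 (-0.86, adjusted p = 0.00484), TEAD4 (-0.62, adjusted p = 0.0119) and LATS2 (-0.93, adjusted p = 0.00597) were called, beside 27.2% of the genes covered. CYR61 kept most of its value without passing (0.82, adjusted p = 0.0559), and WWTR1 (-0.51, adjusted p = 0.16) and AMOTL2 (0.33, adjusted p = 0.458) were not called. AMOTL2 was lost without the first CHL1 PRMT5i library (adjusted p = 0.0683), WWTR1 without the first CHL1 control (adjusted p = 0.0818) or the second A375 PRMT5i library (adjusted p = 0.0554), and CYR61 without any 1 of 4 libraries (adjusted p = 0.0526 to 0.0776). YAP1 was called in each of these fits. The lines also differ in medium and library set, which cannot be told apart from the line.

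The 2 inhibitors act on different proteins and were given at different doses, so their direct comparison at 72 h, added after the values were seen, is given as a difference between these treatments only. In CHL1, PRMT5i exceeded CDK4/6i for YAP1 (log2 1.43, adjusted p = 2.7e-05), WWTR1 (1.07, adjusted p = 0.000185) and TEAD1 (0.79, adjusted p = 0.000661) and lay below it for AMOTL2 (-1.27, adjusted p = 0.000415) and CYR61 (-0.77, adjusted p = 0.00229). These 5 members stand beside 57.8% of all genes. With the GC correction, which called 47.9% of the genes covered, YAP1 (0.94), WWTR1 (0.42) and CYR61 (-0.73) were called in the same directions. TEAD1 (0.24, adjusted p = 0.0952) and AMOTL2 (-0.24, adjusted p = 0.196) were then not called, while TEAD4 was the largest call (1.67, adjusted p = 4.38e-05) and LATS2 (0.51) was called too. In A375, PRMT5i exceeded CDK4/6i for CYR61 (log2 1.22, adjusted p = 0.00877) and TEAD4 (0.83, adjusted p = 0.045), 2 members beside 5.45% of all genes. CYR61 was at 161 and 127 CPM with PRMT5i and at 75.6 and 52.0 CPM with CDK4/6i, so the 2 lines differed in which treatment had the higher CYR61. That contrast between the lines was not itself tested. TEAD4 was not called without any 1 of 8 libraries and CYR61 without any 1 of 3.

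Among the upstream kinase genes, STK3 fell with CDK4/6i in both lines. Of the 23 other Hippo pathway genes, CDK4/6i called 1 lower at 72 h in CHL1 (4.98% of all genes were called), and 1 higher and 2 lower at 6 d (16.6%). In A375 it called 2 higher and 3 lower at 72 h (13.3%), and 3 higher and 9 lower at 6 d (43.1%). STK3, the gene of MST2, was the one gene of the list called in all 4 of these comparisons. It was at 205 and 228 CPM in the CHL1 controls and fell to 100 and 128 CPM at 72 h (log2 -0.93, adjusted p = 0.0126) and 99.5 and 118 CPM at 6 d (log2 -0.98, adjusted p = 0.00338). In A375 it fell from 107 and 93.3 CPM to 48.9 and 50.1 CPM at 72 h (log2 -1.08, adjusted p = 0.00316). At 6 d it was at 62.5 and 88.9 CPM against 241 and 165 CPM (log2 -1.42, adjusted p = 0.000113), and the fall was -0.54 with the GC correction (adjusted p = 0.0165) and -0.45 against the 72 h control (adjusted p = 0.111). STK4, the gene of the paralogue MST1, did not pass in any of the 6 treatment comparisons without the GC correction, its values lying between -0.42 and 0.00 (log2).

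At 6 d in A375 the fall extended to SAV1 (log2 -1.47, adjusted p = 2.52e-05), MOB1A (-1.32), MOB1B (-1.31) and LATS1 (-0.98), while TAOK2, a kinase that activates MST kinases, rose the most (1.15) and VGLL3, a TEAD co-factor, shared the largest fall (-1.47). TEAD3 rose (0.80), and TEAD2 (0.69), NF2 (0.31) and VGLL4 (0.26) did not pass. Under the GC correction SAV1 (-1.15), MOB1A (-0.40), LATS1 (-0.30) and VGLL3 (-0.62) were still called lower and TAOK2 (0.54) higher, MOB1B (-0.07) and TEAD3 (0.18) were not called, and STK4 was called higher (0.38). Against the 72 h control SAV1 was still lower (-0.78, adjusted p = 0.00269), while MOB1A (-0.26), MOB1B (0.46), LATS1 (-0.17), TAOK2 (0.55) and TEAD3 (-0.35) were not called and VGLL3 was higher (0.88, adjusted p = 0.0235). That comparison called 3 higher and 5 lower of the list, beside 31.2% of all genes. At 72 h in A375, VGLL3 rose the most (1.23), and SAV1 fell (-0.57), with LATS1 at -0.30, MOB1A at -0.20, NF2 at -0.23, TEAD2 at -0.69, TEAD3 at 0.00 and VGLL4 at -0.15 not called. In CHL1 the other calls were at 6 d, where FRMD6 rose (0.58) and TEAD2 fell (-0.71). LATS1, SAV1, MOB1A, NF2, TEAD3 and VGLL4 did not pass in CHL1 with CDK4/6i at either time.

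With PRMT5i in CHL1, 10 of the 23 rose and 6 fell, where 54.0% of all genes were called. MOB1B rose the most (log2 1.72), followed among the core kinase genes by LATS1 (1.27), SAV1 (1.10), STK3 (1.09) and MOB1A (1.01). TEAD3 fell the most (-1.24), and TEAD2 (-1.14) and NF2 (-0.49), the gene of the upstream regulator merlin, fell as well, while STK4 (-0.05) and VGLL4 (-0.30) did not pass. With the GC correction 5 of 22 were higher and 2 lower, beside 34.5% of the genes covered: SAV1 (0.59), MOB1B (0.42) and LATS1 (0.38) were still called, and STK3 (0.03), MOB1A (-0.05), TEAD3 (-0.07) and TEAD2 (-0.04) were not. NF2 changed sign (0.43, adjusted p = 0.0111), and STK4 was called lower (-0.75, adjusted p = 0.000624). In A375, PRMT5i called 0 of 23 in edgeR, beside 2.61% of all genes, with STK3 at -0.55. At an unadjusted p under 0.05 there were 5 of the 23, beside 16.1% of all genes. A fit of the 72 h libraries alone called 3 higher and 3 lower, beside 15.8% of all genes. The difference between the lines was called for STK3 (-1.60, adjusted p = 0.000508), MOB1B (-1.74), MOB1A (-1.42), LATS1 (-1.28) and SAV1 (-1.06) without the GC correction. With it, SAV1 was still called (-0.54, adjusted p = 0.038), and STK3 (-0.48), MOB1B (-0.33), MOB1A (-0.29) and LATS1 (-0.35) were not.

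**Figure D5:**
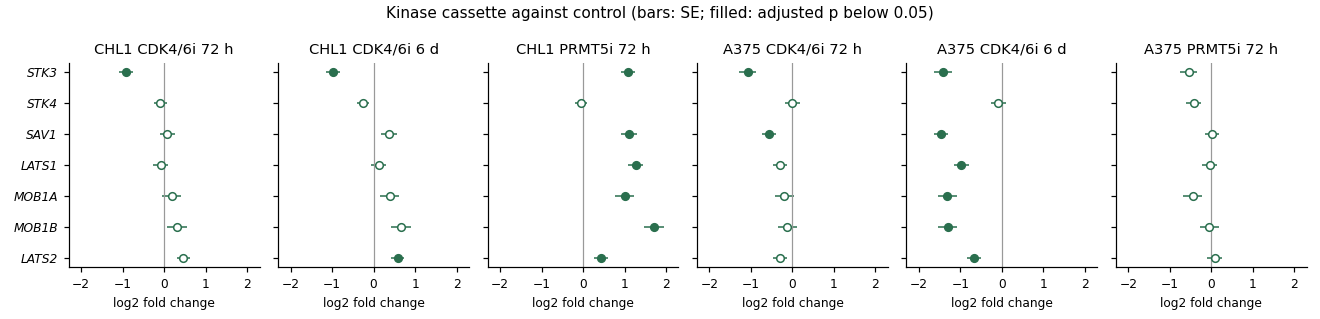
Log2 fold change, with 1 SE of the fit, of the core Hippo kinase genes STK3, STK4, SAV1, LATS1, MOB1A, MOB1B and LATS2 in the 6 comparisons of a treated group with its control, filled where the adjusted p is below 0.05. STK3 is negative and filled in the 4 CDK4/6i comparisons (-0.93 to -1.42) and positive and filled with PRMT5i in CHL1 (1.09), without the GC correction.

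Of the 17 other target genes of YAP/TAZ, CDK4/6i in CHL1 called 1 higher at 72 h, the secreted protein gene CCDC80 (log2 1.27), and 5 higher and 2 lower at 6 d. Among those 5 were MYOF (1.52), CCDC80 (0.99) and IGFBP3, a binding protein of insulin-like growth factors that had 0 reads in both CHL1 controls, so no fold is given, and TGFB2 (-0.75) fell the most. In A375 CDK4/6i called 2 higher and 3 lower at 72 h, led by IGFBP3 (1.14) and NUAK2 (-1.13), and 2 higher and 5 lower at 6 d, led by ARHGEF17 (1.19) and RBMS3 (-2.0), which with the GC correction were at 0.56 and -0.99, both called. The count at 6 d was 3 higher and 7 lower with the GC correction, beside 42.9% of the genes covered. With the 72 h control in place of the 6 d control, it became 1 higher and 9 lower, beside 31.2% of all genes. ARHGEF17 (-0.02) and RBMS3 (-0.32) were then not called. PRMT5i called 4 higher and 5 lower in CHL1, led by NT5E (0.94) and FJX1 (-1.37). Under the GC correction it called 2 higher and 0 lower, beside 34.5% of the genes covered, and NT5E was at 0.74 and FJX1 at 0.01. In A375 PRMT5i called 1, the stress gene GADD45A (0.94, adjusted p = 0.0414). The median over the 17 lay between -0.42, in A375 with CDK4/6i for 6 d, and 0.11, in CHL1 with PRMT5i, against 0.00 to 0.10 over all genes in the 6 comparisons. Over all genes 4.98% and 16.6% were called with CDK4/6i in CHL1, 13.3% and 43.1% in A375, and with PRMT5i 54.0% in CHL1 and 2.61% in A375.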

How the data were processed

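The deposited table holds raw read counts per gene. According to the labels and the study's methods, the authors aligned paired-end reads of poly-A libraries to GRCh37 with HISAT2 (2.0.4 in the submitters' processing notes), counted them with HTSeq (0.11.2 in those notes) and removed genes of low expression. The study's methods give default settings for HTSeq but do not name its strand option. Columns were matched to samples by their labels, and 15208 gene symbols matched GENCODE v44lift37 directly and 1124 by an older symbol. Counts were scaled by TMM and tested with edgeR 4.0.16 (quasi-likelihood, R 4.3.3) over all 20705 genes, in one fit for CHL1 (8 libraries), one for A375 (10 libraries) and one of all 18 for comparisons between the lines. A gene was called at a Benjamini-Hochberg adjusted p below 0.05, and SE is that of the log2 fold change. Printed CPM used one TMM scaling over all 18 libraries. Fits were tested on simulated counts. The GC correction subtracted a loess curve (span 0.4) of each library against GC content of the longest transcript, relative to the median of its line, for 13655 genes, which hold 87.2% of the genes of at least 1 CPM. AJUBA is not among them, and the difference between the lines itself is not corrected.

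The members and lists were chosen with earlier results of these data known. The 10 members are named in every comparison. Of the other lists, counts are given with a fixed set of core genes (LATS1, STK3, STK4, SAV1, MOB1A, NF2, TEAD2, TEAD3 and VGLL4) and, in each comparison, the called gene with the largest rise and fall. Other list genes with values were chosen after their values were seen. Fold changes of members were examined under every alternative where the gene had at least 10 reads in each library of a group of each line and was called in at least 1 fit that left out no library, a rule also set after the values were seen, as were the comparisons between the A375 controls, between the treatments and between the lines at 6 d. The alternatives tried were a test with DESeq2 1.42.0, its size factors within edgeR, a low-count filter at 1 CPM, other sets of libraries in the fit, a replicate block, the GC correction and leaving out each library.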

Additional observations from a re-analysis of the deposited data

Results flagged for a closer look

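The response to PRMT5i differed between the lines for 4 of the 10 genes by the test of the difference itself (edgeR's quasi-likelihood test, adjusted over all genes). In that test 40.9% of all genes were called, so 4 of 10 is near the background. As A375 minus CHL1 on the log2 scale, the values were -1.25 for YAP1, -1.06 for WWTR1, 0.94 for CYR61 and 1.39 for AMOTL2. Without the GC correction, YAP1 and WWTR1 rose and AMOTL2 fell in CHL1. In A375 none of the 4 was called in the fit of all 10 libraries. In a fit of the 72 h A375 libraries alone, WWTR1 was called lower and CYR61 higher. With the GC correction, the CHL1 changes of WWTR1 (-0.03) and AMOTL2 (-0.16) were not called. The difference between the lines was then -0.86 for YAP1 (adjusted p = 0.00484) and 0.82 for CYR61 (adjusted p = 0.0559), in a test that called 27.2% of the genes covered. The differences of WWTR1 (-0.51) and AMOTL2 (0.33) were not called either. Line, medium and library set cannot be told apart in this difference, and the part of the GC trend of the CHL1 PRMT5i libraries in it was not tested beyond this correction. No group has the 4 libraries needed to look for single outlying libraries.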

How the results depend on the processing

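Of the 52 called fold changes examined, 35 kept their direction and call under every alternative that left out no library, and 27 also when each library was left out, the stricter threshold of 0.01 apart. The cause of the changes below was not tested. Called members in CHL1 with CDK4/6i for 72 h numbered 1, and 3 in DESeq2, 5 with the GC correction (also with the replicate block) and 5 with only the groups compared in the fit. At an adjusted p below 0.01 the counts were 0 there (1.03%), 1 at 6 d (6.45%) and 3 with PRMT5i (41.4%). At that threshold the count in A375 was 1 with CDK4/6i for 72 h (5.92%) and 1 for PRMT5i against CDK4/6i (1.47%). It was 1 for the difference between the lines in PRMT5i response (27.6%). In CHL1 with PRMT5i the count was 3 with the GC correction, without the block (34.5%) or with it (36%). There WWTR1 (-0.03), TEAD1 (-0.14, or -0.13 with the block) and TEAD4 (0.42) reversed. The difference between the lines in PRMT5i response reversed for TEAD1 (0.01) and TEAD4 (-0.62, or -0.60 with the block) under the GC correction. In A375 with CDK4/6i for 72 h, 6 members were called with only the groups compared (33.5%), and 5 with the 72 h libraries alone (31%). With PRMT5i in A375 these counts were 4 (8.99%) and 4 (15.8%). For PRMT5i against CDK4/6i in A375 they were 5 (21.8%) and 5 (22.1%), and 1 over the genes with a GC value without correction (7.57%). ANKRD1 in A375 at 6 d was -0.60 against the 72 h control. The difference between the lines in CDK4/6i response at 72 h had 1 member in DESeq2 (2.44%), 1 with the GC correction (3.84%) and 4 with only the groups compared (8.68%). LATS2 for PRMT5i against CDK4/6i in CHL1 was 0.51 with the GC correction (the same with the block) and 0.04 with only the groups compared.

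With single libraries left out, members called ranged from 0 to 4 (CDK4/6i for 72 h), 1 to 4 (6 d) and 3 to 5 (PRMT5i) in CHL1, and from 1 to 4 (CDK4/6i for 72 h) and 0 to 3 (PRMT5i) in A375. They ranged from 0 to 4 for the A375 response at 6 d minus that at 72 h, 3 to 7 for the PRMT5i response between the lines and 0 to 3 for PRMT5i against CDK4/6i in A375. In A375 at 6 d, without the first or the second 6 d control, TEAD4 was -0.60 or 0.28 and AMOTL2 was -0.92 or 0.24.

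The labels share replicate numbers between groups, but nothing ties a number to a culture or day, and there are 2 pairs at most. Same-numbered libraries had deviations correlated from -0.336 to 0.444 over 6 pairs of groups in CHL1 and from 0.218 to 0.481 over 3 in A375. With the replicate block, 6 members were called in A375 with CDK4/6i for 72 h (42.3% of all genes) and 5 with PRMT5i (29.5%). Those 5 were ANKRD1, CTGF, CYR61 and AMOTL2, which were higher, and WWTR1, which was lower. Between the treatments in A375, 6 were called (34.6%), and 1 for the CDK4/6i response between the lines (2.41%). With the block and the GC correction these counts were 6, 6, 6 and 4, beside 53.8%, 39.1%, 45% and 9.1% of the genes covered. The A375 groups of 6 d have no numbers. Over all genes the block raised the calls in A375 from 2761 to 8752 for CDK4/6i at 72 h and from 541 to 6113 for PRMT5i.

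Over all genes, calls for CDK4/6i at 72 h in CHL1 went from 1032 to 1671 in DESeq2, 2172 with the GC correction and 4202 with only the groups compared. For CDK4/6i at 72 h in A375 the last was 6940, and 6424 with the 72 h libraries alone. For PRMT5i in A375 they were 911 in DESeq2, 1501 with the GC correction, 1861 with only the groups compared and 3265 with the 72 h libraries alone. With the GC correction, calls for PRMT5i in CHL1 fell from 11176 to 4715, for CDK4/6i at 6 d in A375 from 8928 to 5859 and for the PRMT5i response between the lines from 8466 to 3715. With 2 libraries per group, CTGF, ANKRD1 and AJUBA could not be followed in CHL1, where they had 68, 41 and 17 reads in all 8 libraries.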

Other observations

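Over the 9 group means of log2 CPM, centred within each line, the genes whose pattern was most like the mean of CTGF, CYR61 and ANKRD1 were BATF2 (Pearson r = 0.985), CCNG1 (0.982), WBSCR17 (0.974), MYL12A (0.97) and GLTPD2 (0.97), out of 15658 genes compared. BATF2 is a transcription factor of the AP-1 family, CCNG1 encodes cyclin G1, a known p53 target, and MYL12A encodes a myosin regulatory light chain. These values are descriptions over group means that share a line, depth and the GC trend of 2 groups, and CTGF and ANKRD1 rested on few reads in CHL1.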
